A study of Homo sapiens with 8 samples.

Results

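The BH3-only genes were followed in RNA-seq data of B-cell lymphoma cells treated with chidamide, a benzamide inhibitor of histone deacetylases (HDACs). The set holds 8 genes, BCL2L11 (BIM), PMAIP1 (NOXA), BBC3 (PUMA), BID, BAD, BIK, BMF and HRK, which were chosen by symbol from the 18143 gene labels that could be placed among the 63967 labels of the table. Raji, a rituximab-sensitive Burkitt lymphoma line, and Raji-4RH, a rituximab-resistant line derived from it by repeated exposure to rituximab, were each given DMSO or 3 μM chidamide for 24 h. Each of the 4 groups (Raji DMSO, Raji chidamide, Raji-4RH DMSO and Raji-4RH chidamide) had 2 libraries, 8 in all, from cells kept for few passages and collected by flow sorting, and the gate of the sort is not given in the sources used here. The sources do not say whether the 2 libraries of a group came from separate cultures, so the p-values measure the spread between these libraries, which may be technical. Raji-4RH is a single derived line, so a difference between the lines is a difference between these 2 lines and not between sensitive and resistant lymphoma in general.

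BH3-only proteins are the members of the BCL2 family that carry only the BH3 helix and start the mitochondrial pathway of apoptosis. They fill the groove of the survival proteins BCL2, BCL-XL (BCL2L1), BCL-W (BCL2L2), MCL1 and A1 (BCL2A1), and some of them also act on BAX and BAK, the effectors that open pores in the outer membrane of the mitochondrion. BIM, PUMA and the cut form of BID bind all of these survival proteins, whereas NOXA binds mainly MCL1 and A1, BAD binds BCL2, BCL-XL and BCL-W, and HRK binds mainly BCL-XL. In B cells BIM removes self-reactive and surplus lymphocytes, and HDAC inhibitors as a class are known to raise the RNA of several BH3-only genes in lymphoid cells.

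Library totals ran from 13991697 to 21193441 reads, and the values are FPKM, reads scaled by the length of the gene and by the total of the library. Reads recovered for the 8 genes ran from 153 (BMF in a Raji DMSO library) to 5301 (PMAIP1 in a Raji-4RH chidamide library). All 8 genes had at least 1 FPKM in all 8 libraries, so all 8 were tested. The reads of the 2 libraries of a group differed by more than sampling noise in every group, with a chi-square per degree of freedom over genes of 1.77 in Raji chidamide, 2.33 in Raji-4RH DMSO, 5.25 in Raji DMSO and 13.5 in Raji-4RH chidamide, whose libraries lay furthest apart. All 7 B-cell markers and all 3 germinal center and Burkitt markers had at least 1 FPKM in every library. The summed B-cell markers lay at 1108 to 1149 FPKM in untreated Raji, 992 to 1004 in treated Raji, 757.7 to 797.3 in Raji-4RH DMSO and 609.7 to 640.6 in Raji-4RH chidamide. The summed markers of T cells (4 genes) went from at most 0.0783 to at most 1.06 FPKM with chidamide in Raji and from at most 0.891 to at most 4.89 in Raji-4RH, and those of myeloid cells (4 genes) from at most 1.09 to at most 7.64 and from at most 1.11 to at most 9.06. Of the T-cell markers, 2 were at 0 in both libraries of each DMSO group, and CD3E was the one above 0 in all libraries. The 2 plasma cell markers summed to at most 1.46 FPKM and the 2 placed stromal and epithelial markers to at most 2.30 FPKM in any library. The part of these shifts in the results that follow was not tested, and fewer cells of a kind and less RNA per cell cannot be told apart in bulk RNA. Reads of 11 mitochondrial genes made up 3.00% to 3.45% of the Raji libraries and 1.68% to 2.25% of the Raji-4RH libraries, and their part was not tested either.

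Gene labels and values do not share a row throughout the table, because it has 63305 rows of values of its own and its last 662 rows repeat the first 662. BBC3, BID, BAD, BIK and BMF stood in their own rows. The values of PMAIP1 and HRK were read 1 row below the label and those of BCL2L11 3 rows below. These distances were checked with 366 labels of ribosomal, proteasome and other housekeeping genes. In the stretch that holds PMAIP1 and HRK, 98.7% of 77 such labels reached 1 FPKM at a distance of 1 row and at most 72.7% at any other distance from 0 to 16 rows. In the stretch that holds BCL2L11, 89.8% of 49 labels did so at 3 rows and at most 73.5% elsewhere. The rows that carry the labels themselves hold at most 0.0216 FPKM for BCL2L11, at most 0.068 for PMAIP1 and at most 1.03 for HRK.

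Promoter sequence is shown for the pair of genes whose levels followed each other most closely over the libraries, BMF and PMAIP1, and for BCL2L11, whose promoter was the only one found here with a FOXO core motif. The windows come from RefSeq (GRCh38.p14), cover up to 250 bases before the start of transcription, are written 5′ to 3′ on the strand of the gene and leave out bases that lie in an annotated exon of the gene. Capitals mark matches to the FOXO core GTAAACA, the E-box CACGTG, the GC box GGGCGG or the CCAAT box CCAAT on either strand. No matches overlap in the printed runs. The first of 2 BMF windows is chr15:40108893-40109129 (minus strand), the PMAIP1 window is chr18:59899746-59899947 (plus strand) and the BCL2L11 window is chr2:111120664-111120913 (plus strand).
BMF promoter: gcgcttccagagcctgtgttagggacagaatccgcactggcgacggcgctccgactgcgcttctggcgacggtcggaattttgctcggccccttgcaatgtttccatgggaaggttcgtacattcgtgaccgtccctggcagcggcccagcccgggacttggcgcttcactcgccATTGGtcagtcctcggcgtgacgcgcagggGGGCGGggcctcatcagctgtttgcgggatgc
PMAIP1 promoter: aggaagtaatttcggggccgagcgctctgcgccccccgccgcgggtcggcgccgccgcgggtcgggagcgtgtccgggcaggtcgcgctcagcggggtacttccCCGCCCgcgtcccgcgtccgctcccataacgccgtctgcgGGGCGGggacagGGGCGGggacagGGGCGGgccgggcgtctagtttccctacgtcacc
BCL2L11 promoter: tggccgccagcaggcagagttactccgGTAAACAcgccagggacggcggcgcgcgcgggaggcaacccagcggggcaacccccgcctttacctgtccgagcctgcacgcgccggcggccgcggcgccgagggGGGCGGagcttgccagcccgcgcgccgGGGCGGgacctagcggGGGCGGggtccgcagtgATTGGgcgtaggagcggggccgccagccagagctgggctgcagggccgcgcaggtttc
The BMF window held 1 GC box and 1 CCAAT box, and the PMAIP1 window held 4 GC boxes. In BCL2L11 the FOXO core began at position -223, counted back from the start, and was followed by 3 GC boxes and 1 CCAAT box. Windows were found for 7 of the 8 genes (BIK is named only), 13 in all because BID has 5, BAD 2 and BMF 2. Over the full 250 bases, the GC box was found in 6 of the 7 genes and in 42.6% of all 35116 RefSeq promoters. The CCAAT box was in 4 of the 7 genes against 32.0% of all promoters, the E-box in 2 (BBC3 and BID) against 6.34%, and the FOXO core in 1 against 2.98%. A gene with several windows had more chances of a match. Also over the full 250 bases, G and C made up 76.8% in BCL2L11, 72.8% in PMAIP1 and 65.2% in the first BMF window. The median of all promoters was 58.0%. The second BMF window had 48.8%, and the 13 windows ran from 47.6% to 78.0% (both in BID).

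In Raji-4RH, chidamide raised 5 of the 8 BH3-only genes and lowered the other 3. BMF, PMAIP1, BBC3, HRK and BCL2L11 were higher, and BID, BIK and BAD were lower. All 8 passed the test (limma, adjusted p under 0.05 over all 10710 genes tested) against 74.9% of all genes, where 43.3% rose and 31.6% fell. Of all calls in Raji-4RH 57.9% were higher, which became 47.8% after quantile normalization and 68.2% without a filter on low genes. The groups did not overlap for any of the 8, which held for 86.5% of all genes. The median log2 fold change of the 8 genes was 0.71, and that of all genes tested was 0.093. In Raji, 7 of 8 passed the test against 60.0% of all genes, with the same 5 higher (31.5% of all genes rose) and BID and BIK lower (28.5% fell). No groups overlapped for the 8 genes in Raji, which held for 82.8% of all genes, and the median log2 fold change was 0.57 against 0.017 for all genes. Both comparisons are given on the scale of log2(FPKM + 1), which understates the change of a gene of low level.

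**Figure D1:**
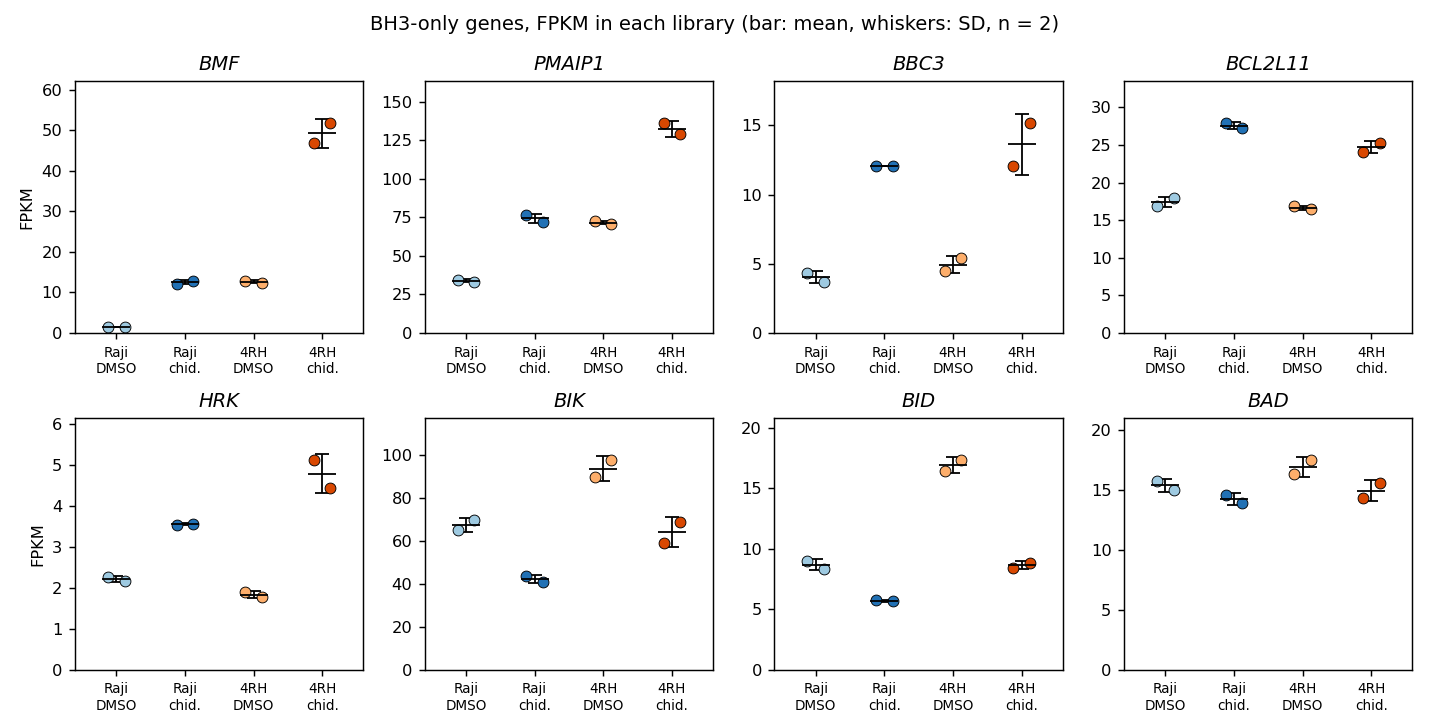
FPKM of each BH3-only gene in each of the 8 libraries, with the mean (bar) and SD (whiskers, n = 2) of the groups Raji DMSO, Raji chidamide, Raji-4RH (4RH) DMSO and Raji-4RH chidamide; each panel has its own axis from 0. BMF and PMAIP1 stood at about the same level in Raji chidamide as in Raji-4RH DMSO (12.6 and 12.6 FPKM for BMF), and BID and BIK did so in Raji DMSO and Raji-4RH chidamide.

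BMF showed the largest fold change of the group in both lines. BMF is held on the cytoskeleton by dynein light chain and released under stress. Its level was 12.9 and 12.3 FPKM in Raji-4RH DMSO and 46.7 and 51.7 FPKM in Raji-4RH chidamide, so the treated libraries were 3.90-fold higher by the mean, with no overlap. In limma the log2 fold change was 1.88 (SE 0.0665, adjusted p = 1.07e-07). In Raji, BMF was at 1.42 and 1.53 FPKM with DMSO, the lowest level of any of these genes in any group, and at 12.2 and 12.9 FPKM with chidamide. This was 8.50-fold by the mean and 2.45 on the log2 scale (SE 0.0665, adjusted p = 1.54e-07). The treated Raji cells thus reached the level that Raji-4RH had without the drug, and the libraries of these 2 groups overlapped. The difference between the effects (Raji-4RH minus Raji) was -0.57 on the log2 scale (SE 0.094, adjusted p = 0.00153). After quantile normalization it was -0.067 (adjusted p = 0.605), and with a pseudocount of 0.1 it was -1.12, and in the other alternatives run it kept its call. The rise of BMF in each line kept its call in all alternatives run.

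PMAIP1 encodes NOXA, a short protein that binds MCL1 and sends it to degradation. It was at 72.4 and 70.9 FPKM in Raji-4RH DMSO and rose to 136 and 129 FPKM with chidamide, a log2 fold change of 0.88 (SE 0.0556, adjusted p = 1.86e-06) or 1.85-fold by the mean. Raji went from 34.6 and 33.2 FPKM to 76.4 and 72.2 FPKM, which is 1.11 on the log2 scale (adjusted p = 1.52e-06). As with BMF, the treated Raji libraries overlapped with the untreated Raji-4RH libraries. With chidamide PMAIP1 was the most abundant of the 8 transcripts per length in both lines. The effects differed by -0.23 (SE 0.0787, adjusted p = 0.0384), which lost its call after quantile normalization (-0.11, adjusted p = 0.262) and without any single library of the Raji DMSO, Raji chidamide or Raji-4RH DMSO groups (adjusted p from 0.055 to 0.157).

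BBC3 encodes PUMA, which binds all survival proteins and is best known as a target of the DNA damage response. Its level was 4.49 and 5.39 FPKM in Raji-4RH DMSO and 12.1 and 15.2 FPKM in Raji-4RH chidamide, a log2 fold change of 1.29 (SE 0.114, adjusted p = 1.26e-05). The Raji libraries were at 4.33 and 3.72 FPKM with DMSO and at 12.1 and 12.05 FPKM with chidamide, a log2 fold change of 1.38 (SE 0.114, adjusted p = 2.16e-05). BBC3 thus rose by about the same amount in both lines: the effects differed by -0.087, with a 95% interval from -0.46 to 0.28 (adjusted p = 0.683). That interval does not show that the effects were equal. The Raji-4RH chidamide libraries lay furthest apart from each other for this gene (SD 2.19 FPKM, n = 2).

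HRK, known as harakiri, is a binder of BCL-XL best known from the death of neurons. It was at 1.89 and 1.78 FPKM in Raji-4RH DMSO and at 5.13 and 4.45 FPKM in Raji-4RH chidamide, a log2 fold change of 1.03 (SE 0.0698, adjusted p = 2.76e-06). In Raji it went from 2.28 and 2.17 FPKM to 3.54 and 3.57 FPKM, a log2 fold change of 0.50 (SE 0.0698, adjusted p = 0.000383). On the log2 scale of the main test, HRK was the only member whose rise was larger in Raji-4RH. The difference between the effects was 0.53 (SE 0.0987, adjusted p = 0.00283) and kept its call in all alternatives run. By the group means in FPKM, BMF, PMAIP1 and BBC3 also rose by more in Raji-4RH than in Raji. After quantile normalization the rise of HRK in Raji was 0.28 (adjusted p = 0.0267).

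BCL2L11 encodes BIM, the BH3-only protein with the broadest role in lymphocyte death and a known target of FOXO factors. It was at 16.8 and 16.4 FPKM in Raji-4RH DMSO and at 24.1 and 25.3 FPKM in Raji-4RH chidamide, a log2 fold change of 0.54 (SE 0.0533, adjusted p = 2.4e-05). The Raji libraries were at 16.9 and 17.9 FPKM with DMSO and at 27.9 and 27.3 FPKM with chidamide, a log2 fold change of 0.64 (SE 0.0533, adjusted p = 2.34e-05). The rise was thus 1.49-fold in Raji-4RH and 1.58-fold in Raji by the means. The effects differed by -0.091, with a 95% interval from -0.26 to 0.082 (adjusted p = 0.344).

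The other 3 genes fell or stayed below the threshold. BID needs to be cut, usually by caspase-8, before it acts on mitochondria. Its level was 16.4 and 17.3 FPKM in Raji-4RH DMSO and 8.41 and 8.85 FPKM in Raji-4RH chidamide, a log2 fold change of -0.89 (SE 0.0599, adjusted p = 2.59e-06). Raji went from 9.01 and 8.34 FPKM to 5.73 and 5.65 FPKM, a log2 fold change of -0.53 (SE 0.0599, adjusted p = 0.000116). BID fell more in Raji-4RH, with a difference of -0.36 between the effects (SE 0.0846, adjusted p = 0.00853). It kept its call in every other fit run, and its size was under a log2 change of 0.5. The treated Raji-4RH libraries came down to the level of the untreated Raji libraries and overlapped with them.

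BIK is a membrane protein that sits mainly at the endoplasmic reticulum. It was at 89.8 and 98.0 FPKM in Raji-4RH DMSO and at 59.3 and 69.1 FPKM in Raji-4RH chidamide, a log2 fold change of -0.54 (SE 0.0831, adjusted p = 0.000377). After quantile normalization this fall was -0.24 (adjusted p = 0.0206). In Raji it went from 65.2 and 69.7 FPKM to 43.6 and 41.0 FPKM, a log2 fold change of -0.66 (SE 0.0831, adjusted p = 0.000209). BIK was the most abundant of the 8 transcripts in both lines without the drug, and the effects differed by 0.12, with a 95% interval from -0.15 to 0.39 (adjusted p = 0.436).

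BAD, which is kept inactive by phosphorylation and 14-3-3 proteins, varied least. Its level was 16.3 and 17.5 FPKM in Raji-4RH DMSO and 14.4 and 15.5 FPKM in Raji-4RH chidamide. The log2 fold change of -0.17 (SE 0.0629, adjusted p = 0.0377) lost its call in 9 of 18 other fits, among them those after quantile normalization (-0.049, adjusted p = 0.475), without a filter on low genes (adjusted p = 0.0547), with only the libraries compared (adjusted p = 0.0858), with voom on the recovered reads (adjusted p = 0.0737), and without either Raji chidamide library, the second Raji-4RH DMSO library or the first Raji-4RH chidamide library (adjusted p up to 0.219). In Raji, BAD was at 15.8 and 14.997 FPKM with DMSO and at 14.6 and 13.9 FPKM with chidamide, a log2 fold change of -0.10 with a 95% interval from -0.25 to 0.041 (adjusted p = 0.188).

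**Figure D2:**
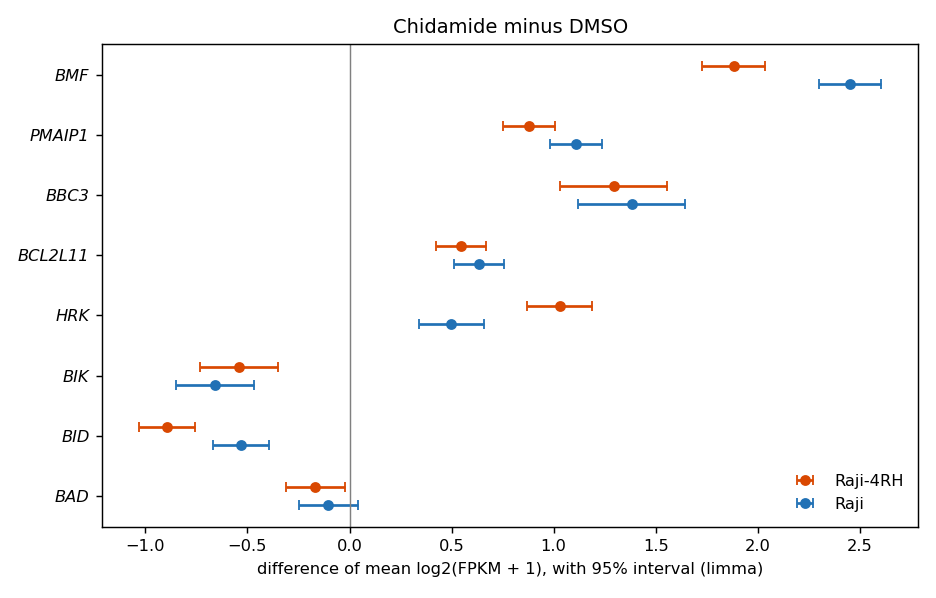
Difference of the mean log2(FPKM + 1) between chidamide and DMSO for each gene in Raji-4RH and in Raji, with the 95% interval from limma; values right of 0 are higher with chidamide. BMF, PMAIP1, BBC3, BCL2L11 and HRK lie right of 0 and BIK and BID left of 0 in both lines, with BMF furthest right at 1.88 and 2.45.

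The difference between the 2 effects was tested for every member, and 4 of 8 passed (PMAIP1, BID and BMF lower and HRK higher in Raji-4RH) against 48.8% of all genes, where 27.2% were higher and 21.7% lower. The median difference of the 8 genes was -0.089, and that of all genes tested was 0.038. BCL2L11, BBC3, BAD and BIK did not pass, with the intervals given above for the first, the second and the last of them and from -0.27 to 0.14 for BAD (difference -0.064, adjusted p = 0.578). Both effects were measured against untreated cells whose levels already differed between the lines.

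Without the drug, the resistant line carried more RNA of several BH3-only genes than the parental line. BMF, PMAIP1, BID and BIK were higher in Raji-4RH DMSO than in Raji DMSO, and HRK was lower. These 5 of 8 passed the test against 73.6% of all genes (41.2% higher, 32.4% lower), and the libraries of the 8 genes did not overlap, which held for 88.5% of all genes. The median log2 fold change was 0.36 for the 8 genes and 0.063 for all genes. BMF was 8.55-fold higher by the means (log2 fold change 2.46, SE 0.0665, adjusted p = 1.26e-08). PMAIP1 was 2.11-fold higher (log2 fold change 1.06, adjusted p = 5.49e-07) and BID 1.95-fold higher (log2 fold change 0.89, adjusted p = 2.54e-06). BIK was 1.39-fold higher, or 0.47 on the log2 scale (adjusted p = 0.000941). The lower level of HRK (log2 fold change -0.19, adjusted p = 0.0385) lost its call without a filter on low genes (adjusted p = 0.0761) and without any single Raji DMSO, Raji chidamide or Raji-4RH DMSO library (adjusted p from 0.0624 to 0.163). BCL2L11 (-0.062, adjusted p = 0.321), BBC3 (0.24, adjusted p = 0.0871) and BAD (0.13, adjusted p = 0.0949) did not pass, although BBC3 passed without either Raji-4RH chidamide library (adjusted p = 0.0312 and 0.0314).

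Under chidamide the higher levels in Raji-4RH were found for BMF (log2 fold change 1.89, adjusted p = 4.47e-08), PMAIP1 (0.83, adjusted p = 1.91e-06), BIK (0.59, adjusted p = 0.000201), BID (0.53, adjusted p = 5.16e-05) and HRK (0.34, adjusted p = 0.0018). BCL2L11 was lower (-0.15, adjusted p = 0.0269). These 6 of 8 compare with 79.3% of all genes that passed (44.3% higher, 35.0% lower), and 6 of 8 genes had no overlap against 88.5% of all genes. The median was 0.43 for the 8 genes and 0.09 for all genes. BBC3 (0.15, adjusted p = 0.243) and BAD (0.064, adjusted p = 0.368) overlapped between the lines, but BBC3 passed without the first Raji-4RH chidamide library (0.31, adjusted p = 0.0264). HRK lost its call after quantile normalization (0.16, adjusted p = 0.122). BCL2L11 lost its call after quantile normalization (-0.018, adjusted p = 0.769), with only the libraries compared (adjusted p = 0.0645), and without either Raji chidamide library or the first Raji-4RH chidamide library (adjusted p from 0.0744 to 0.136).

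**Figure D3:**
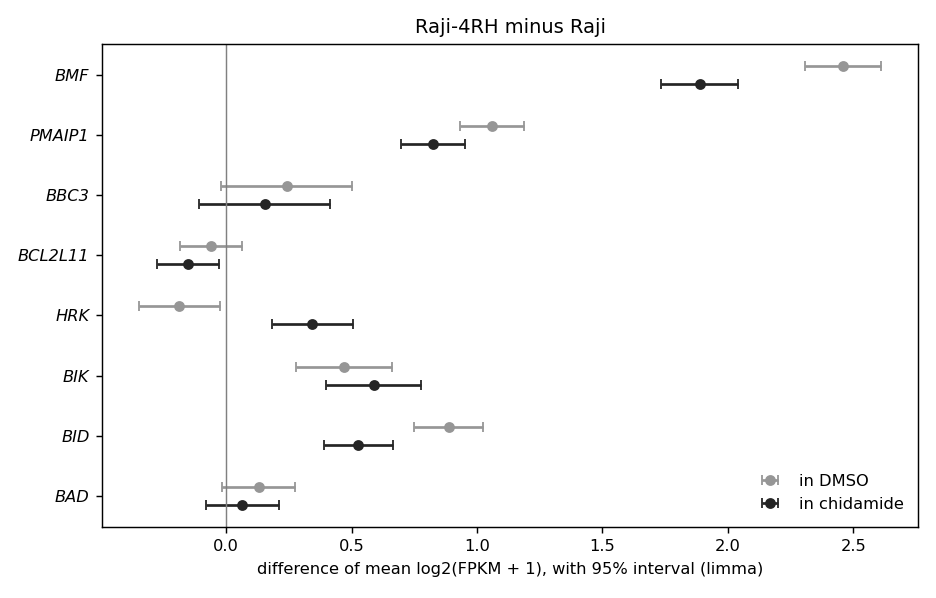
Difference of the mean log2(FPKM + 1) between Raji-4RH and Raji for each gene, in DMSO and in chidamide, with the 95% interval from limma; values right of 0 are higher in Raji-4RH. BMF lies furthest right in both conditions (2.46 and 1.89), and HRK lies left of 0 in DMSO and right of 0 in chidamide.

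The levels of the 8 genes added up to 149.5 and 151.6 FPKM in untreated Raji, 196 and 189 FPKM in treated Raji, 231 and 239.7 FPKM in Raji-4RH DMSO, and 306 and 319 FPKM in Raji-4RH chidamide. The 4 groups did not overlap in this sum, and the untreated resistant line stood above the treated parental line. Most of the sum came from BIK and PMAIP1. Without the drug BIK made up 44.8% ± 1.69 (SD, n = 2) of it in Raji and 39.9% ± 1.42 in Raji-4RH, and with chidamide 22.0% ± 0.348 and 20.5% ± 1.63. PMAIP1 went from 22.5% ± 0.855 to 38.6% ± 0.491 in Raji and from 30.5% ± 1.225 to 42.4% ± 2.89 in Raji-4RH, so that it took the place of BIK as the largest share in both. The share of BMF went from 0.981% ± 0.0413 to 6.54% ± 0.458 in Raji and from 5.37% ± 0.315 to 15.7% ± 0.688 in Raji-4RH. These sums are dominated by the genes of high level and carry no test.

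**Figure D4:**
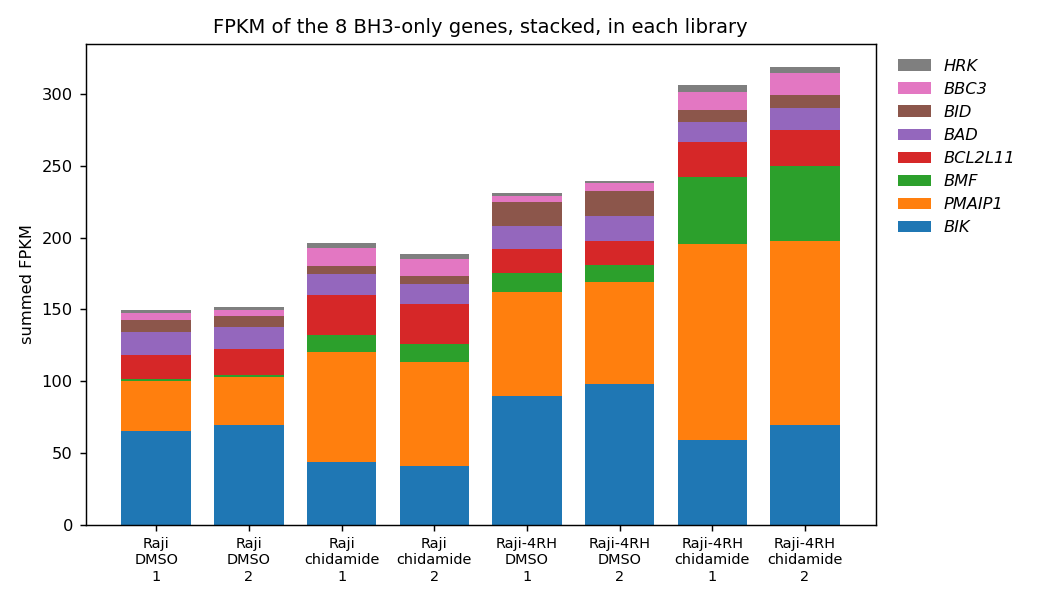
FPKM of the 8 genes stacked in each library, with the libraries of each group side by side and the axis starting at 0. The sum was 149.5 and 151.6 FPKM in Raji DMSO and 306 and 319 FPKM in Raji-4RH chidamide, BIK was the largest block without the drug and PMAIP1 the largest with it.

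Over the 8 libraries, the members fell into patterns that can be described by Pearson correlation of log2(FPKM + 1), where libraries of a group share their treatment and line and no test applies. BMF and PMAIP1 followed each other closely (r = 0.997), as did BID and BIK (r = 0.955) and BCL2L11 and BBC3 (r = 0.932). BID and BCL2L11 ran in opposite directions (r = -0.793), and BID and BMF showed next to no relation (r = 0.013). Among 6613 other genes of at least 5 FPKM on average, the most alike to BMF were NXPE3 (r = 0.999), WWC3 (r = 0.998) and PMAIP1, and those most alike to PMAIP1 were NXPE3, SNAPIN (r = 0.998) and BMF. BCL2L11 was most like TACC1 (r = 0.997), NEK9 (r = 0.995) and CREG1 (r = 0.994), and BBC3 most like CRY2 (r = 0.993), TMEM127 (r = 0.993) and RTN2 (r = 0.991). BID was most like GATAD2A (r = 0.997), HMGXB4 (r = 0.997) and PTPN7 (r = 0.996), and BIK most like C1orf43 (r = 0.994), PDXDC1 (r = 0.990) and PDPR (r = 0.990). HRK was most like CCS (r = 0.998), POLR1D (r = 0.994) and PARVG (r = 0.994). BAD had the weakest best match, PRR7 (r = 0.980), followed by FAM83G and GYS1 (r = 0.967 for both).

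The proteins that BH3-only proteins bind were described from a list of 9 survival proteins and pore effectors, of which 7 were tested (BOK and BCL2L10 were too low). In Raji, chidamide raised 5 of the 7 and lowered 1, and the median log2 fold change of the list was 0.52 (of all genes 31.5% were higher and 28.5% lower, with a median of 0.017). Over 18 fits of the correctly placed rows, 4 to 5 genes of the list were higher. BCL2A1, the partner of NOXA and BIM, went from 1.91 and 2.51 FPKM to 34.2 and 36.1 FPKM (log2 fold change 3.50, adjusted p = 8.71e-07). BCL2 (1.06, adjusted p = 1.27e-05), MCL1 (0.66, adjusted p = 1.09e-05) and BCL2L1 (0.52, adjusted p = 0.000416) rose as well, and BAX fell (-0.45, adjusted p = 0.00131). The rise of BAK1 (0.16, adjusted p = 0.0476) was close to the threshold, with adjusted p up to 0.302 over the alternatives.

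In Raji-4RH, BCL2 (1.06, adjusted p = 4.69e-06) and MCL1 (0.41, adjusted p = 7.94e-05) rose and BAX fell (-0.37, adjusted p = 0.00238), and the median was 0.24 (of all genes 43.3% were higher and 31.6% lower, with a median of 0.093). BCL2A1 was at 1.32 and 2.34 FPKM without and 2.36 and 2.59 FPKM with the drug (0.32, adjusted p = 0.0965). It passed with the replicate block, and its log2 fold change was 0.58 without the second Raji-4RH DMSO library. BAK1 did not pass (-0.015, adjusted p = 0.841) but did so after quantile normalization (0.19, adjusted p = 0.0187). BCL2L2 did not pass (0.24, adjusted p = 0.0988) but did so without the second Raji-4RH chidamide library (0.44, adjusted p = 0.000686). The effects differed between the lines for BCL2A1 (-3.18, adjusted p = 2.27e-05), BCL2L1 (-0.50, adjusted p = 0.00476) and MCL1 (-0.26, adjusted p = 0.015), and the call of MCL1 was lost after quantile normalization and without either Raji chidamide or either Raji-4RH DMSO library (adjusted p up to 0.199). No gene of the list was higher in untreated Raji-4RH than in untreated Raji, and 4 were lower (4 to 5 over these fits), where 41.2% of all genes were higher and 32.4% lower. BAX was at 62.7 and 57.3 FPKM in Raji and at 11.95 and 12.4 FPKM in Raji-4RH (-2.21, adjusted p = 5.09e-08), while BAK1 differed by 0.063 (adjusted p = 0.378). BCL2L2 (-1.56, adjusted p = 4.96e-06), MCL1 (-0.37, adjusted p = 0.000144) and BCL2L1 (-0.32, adjusted p = 0.00408) were the others.

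**Figure D5:**
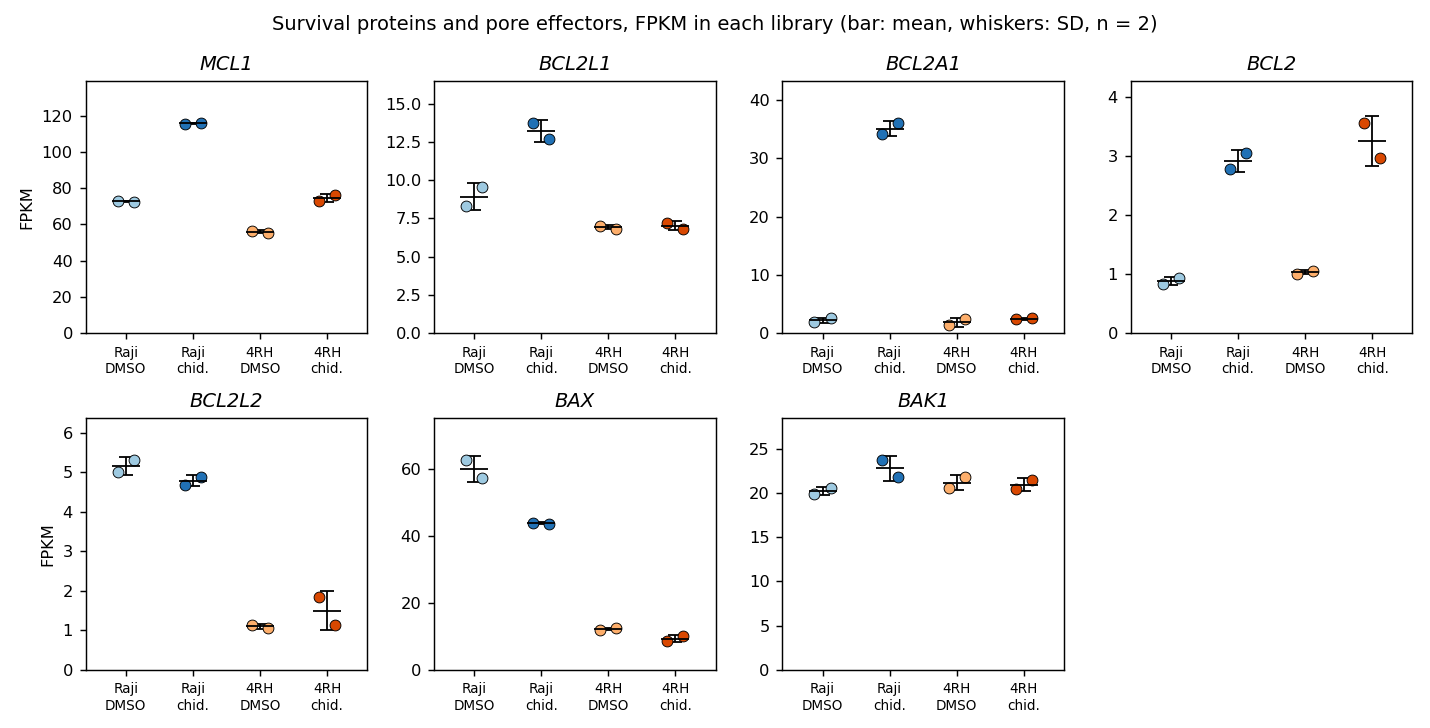
FPKM of the survival proteins MCL1, BCL2L1, BCL2A1, BCL2 and BCL2L2 and of the effectors BAX and BAK1 in each of the 8 libraries, with the mean (bar) and SD (whiskers, n = 2); each panel has its own axis from 0. BCL2A1 is high only in the Raji chidamide libraries, at 34.2 and 36.1 FPKM, and BAX is low in all Raji-4RH libraries.

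Set against the summed FPKM of 6 survival genes (the 5 named above and BCL2L10), the summed BH3-only genes gave a ratio of 1.68 and 1.67 in untreated Raji, and of 1.15 and 1.09 with chidamide. In Raji-4RH the ratio was 3.45 and 3.59 without and 3.48 and 3.55 with the drug. The ratio was lower with chidamide in Raji, and the treated and untreated libraries of Raji-4RH overlapped. It is a ratio of RNA levels and says nothing of protein or of binding.

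Transcription factors known to act on BH3-only genes made up a list of 11, of which 10 were tested. Chidamide raised 5 and lowered 4 in Raji-4RH (median 0.40) and raised 5 and lowered 3 in Raji (median 0.38), where 74.9% of all genes were called in Raji-4RH and 60.0% in Raji. The 3 FOXO factors of the list rose in both lines, FOXO1 by 1.06 in Raji-4RH (adjusted p = 7.27e-07) and 0.69 in Raji (adjusted p = 2.11e-05). FOXO3 rose by 1.14 and 1.31 (adjusted p = 4.52e-07 and 6.55e-07) and FOXO4 by 1.218 and 0.79 (adjusted p = 8.4e-07 and 2.5e-05). TP63 rose by 1.88 and 1.87 and JUN by 1.02 and 1.62. E2F1, a factor of S-phase entry, fell by 2.10 in Raji-4RH and by 0.87 in Raji (adjusted p = 4.02e-08 and 6.23e-06). Of the list, 6 genes were higher and 1 lower in untreated Raji-4RH than in untreated Raji. Of all genes, 41.2% were higher and 32.4% lower in that comparison. Over 18 fits of the correctly placed rows, 5 to 7 of the list were higher and 1 to 3 lower. DDIT3 (1.23, adjusted p = 3.77e-07) and ATF4 (1.12, adjusted p = 2.82e-06), factors of the integrated stress response, and FOXO3 (0.70, adjusted p = 6.6e-06) changed most.

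Proteins that hold, cut, phosphorylate or degrade BH3-only proteins made up a list of 18, of which 17 were tested. In each line 6 rose and 6 fell with chidamide, with medians of -0.12 in both, and 74.9% of all genes were called in Raji-4RH and 60.0% in Raji. Over 18 fits of the correctly placed rows the counts in Raji-4RH went from 5 to 9 higher and from 5 to 10 lower, and in Raji 6 were higher and 6 to 9 lower. The kinases PIM1 and PIM2, which can phosphorylate BAD, rose by 1.57 and 1.23 in Raji-4RH (adjusted p = 1.92e-07 and 2.8e-06) and by 0.79 and 0.78 in Raji (adjusted p = 1.88e-05 and 9.16e-05). Both were lower in untreated Raji-4RH than in untreated Raji (-1.93 and -1.43, adjusted p = 3.51e-08 and 1.05e-06). AKT1, another kinase of BAD on the list, fell with chidamide in Raji-4RH (-0.65, adjusted p = 7.82e-05) and in Raji (-0.66, adjusted p = 0.000134). The 14-3-3 gene YWHAH fell by 1.43 in Raji-4RH (adjusted p = 1.85e-07) and by 0.77 in Raji (adjusted p = 1.26e-05). YWHAQ (-0.59 and -0.37) and YWHAE (-0.43 and -0.44) fell as well in Raji-4RH and Raji. YWHAZ rose in Raji-4RH (0.20, adjusted p = 0.0095), a call lost with median-centred libraries, and did not pass in Raji (-0.097, adjusted p = 0.161). YWHAB and YWHAG did not pass in either line in the main test. A list of 13 genes for the steps after the pore had 12 tested, of which 3 rose and 4 fell in Raji-4RH (median -0.056) and 5 rose and 3 fell in Raji (median 0.069), to be read against the same shares of all genes. Over the same 18 fits, 2 to 3 were higher and 4 to 6 lower in Raji-4RH, and 3 to 5 higher and 2 to 5 lower in Raji. APAF1, the scaffold of the apoptosome, rose by 1.04 in Raji-4RH (adjusted p = 9.93e-07) and 0.77 in Raji (adjusted p = 1.45e-05), and the mitochondrial nuclease gene ENDOG fell by 0.87 and 0.78 (adjusted p = 0.000104 and 0.000363).

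Part of the exons of some members overlaps with other genes in GENCODE v29, and the kit is not stated to mark strand, so reads from the shared bases cannot be told apart. BAD shares 23.7% of its exon length with GPR137 on the other strand, which was at 6.997 and 7.91 FPKM in Raji-4RH DMSO and at 5.35 and 6.75 FPKM in Raji-4RH chidamide. BCL2L11 shares 10.9% with MIR4435-2HG, which was at 3.63 and 3.26 FPKM in untreated Raji and, with the drug, at 3.63 and 3.13 FPKM. In Raji-4RH the same gene was at 0.809 and 0.772 FPKM without and 1.05 and 1.31 FPKM with chidamide. The part of these neighbours in the members' values was not tested. BMF shares 8.46% with BMF-AS1, which was not placed, and BBC3 shares 2.52% with a microRNA gene. The genes lie at chr2:111119378-111168447 (BCL2L11), chr18:59899948-59904306 (PMAIP1), chr19:47220822-47232766 (BBC3), chr22:17734138-17774770 (BID), chr11:64269830-64284704 (BAD), chr22:43110748-43129712 (BIK), chr15:40087890-40108892 (BMF) and chr12:116856144-116881441 (HRK) on GRCh38. All 8 are protein-coding, and for all 8 the gene length of the deposited table equals the joined length of all annotated exons, so the values cover all isoforms together.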

How the data were processed

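RNA-seq of 8 libraries (4 groups of 2) was analyzed. The authors deposited 1 table of FPKM values with gene lengths. The submitters' processing notes name HISAT2 2.0.5, SAMtools 1.7, HTSeq 0.9.1, DESeq2 1.22.2 and the build hg38 (GRCh38). The FPKM values came out as whole reads (within 0.01 of a read) for 100% of values. Values were read from the rows below each label that fixed distances give, and were rescaled by gene length. This placed 18143 labels and 90.7% to 93.2% of the reads of each library. Differences were tested with limma 3.58.1 in R 4.3.3 (lmFit, eBayes with trend, two-sided) on log2 values after adding a pseudocount of 1 to the FPKM. A single model held all 8 libraries, for 10710 genes that reached 1 FPKM in 2 or more of them. The threshold was an adjusted p (Benjamini-Hochberg) of 0.05. The smallest p that exact permutation of 2 against 2 libraries allows is 0.333. The script was tested on simulated data. Precision is limited by the 2 libraries per group. The members and lists, and the distances between labels and values, were chosen with earlier results of these data known. Besides the 8 members, named genes are those among the 3 largest changes of a list or in a count of 5 or fewer, and the 3 genes most alike to each member. The genes at exon overlaps were chosen after values had been seen, and not every gene that the rule allows is named. Alternatives were quantile normalization, median-centred libraries, a pseudocount of 0.1, no filter on low genes, a filter on the mean (1 FPKM), eBayes without trend, only the libraries compared, a replicate block, voom on recovered reads, rows as deposited, a log2 change of at least 0.5 and leaving out each library. Python 3.11.15 with pandas 2.3.3, numpy 2.4.6 and matplotlib 3.10.9 was used. GENCODE v29 and RefSeq promoters served as annotation.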

Additional observations from a re-analysis of the deposited data

Results flagged for a closer look

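The change with chidamide differed between the lines, by the test of the difference itself in limma (Raji-4RH minus Raji, on the log2 scale), for 4 of the 8 BH3-only genes. PMAIP1 rose less in Raji-4RH (difference -0.23, adjusted p = 0.0384), a call that was lost in 7 of 16 other fits. BID fell more in Raji-4RH (difference -0.36, adjusted p = 0.00853). BMF rose less in Raji-4RH (difference -0.57, adjusted p = 0.00153), but after quantile normalization its difference was -0.067 (adjusted p = 0.605). HRK rose more in Raji-4RH (difference 0.53, adjusted p = 0.00283). Among their binding partners the same test gave -3.18 for BCL2A1 (adjusted p = 2.27e-05), -0.50 for BCL2L1 (adjusted p = 0.00476) and -0.26 for MCL1 (adjusted p = 0.015). The call of MCL1 was lost after quantile normalization and without some single libraries. Of all genes tested, 48.8% had such a difference, close to the 4 of 8 here. With 2 libraries in each group, no library could be tested for standing apart from the rest of its group.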

How the results depend on the processing

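Over the 8 genes, 5 comparisons and all alternatives, 658 values kept their direction and their side of the threshold, 30 lost a call, 3 gained one and 6 turned their sign. All 6 were without a call in the main test. For BBC3 the difference between the effects was 0.081 after quantile normalization, 0.0016 without the second Raji DMSO library, 0.022 without the second Raji-4RH DMSO library and 0.066 without the first Raji-4RH chidamide library, in a range from -0.24 to 0.066 over the libraries left out. For BCL2L11 it was 0.028 after quantile normalization, and BAD under chidamide (Raji-4RH against Raji) was -0.015 with median-centred libraries. The number of genes with a difference between the effects fell from 4 to 2 after quantile normalization and also to 2 where a log2 change of at least 0.5 was asked for. That size left 3 genes between the untreated lines. With the rows as deposited, where PMAIP1, HRK and BCL2L11 carry the values of another row, 5 genes were called in Raji-4RH, 4 in Raji, 2 for the difference, 3 between the untreated lines and 3 under chidamide. The cause of the other changes was not tested. Quantile normalization moved the median of all genes in Raji-4RH from 0.093 to -0.022 and the share of higher among called genes from 57.9% to 47.8%. Without a filter that share was 68.2%. With the replicate block, 7 genes were called in Raji-4RH in place of 8 (BAD, adjusted p = 0.0575), and no other call of these genes changed. In the other lists BCL2A1 in Raji-4RH gained a call under the block. Calls lost there were, among others, those of BAK1 in Raji and of HTRA2 in both lines. Libraries with the same number did not deviate together (correlations of deviations from -0.279 to 0.166), so the numbers were not taken as pairs. A fit of only the libraries compared was not made for the difference, which uses all 8. Where 1 library of a group was left out, the other was assumed to vary like the other groups.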

Other observations

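Other BH3 or BH3-like proteins made up a further list of 9, of which 8 were tested. Between the untreated lines 7 were higher in Raji-4RH and none lower, with a median of 0.39 against 0.063 for all genes, of which 41.2% were higher and 32.4% lower. Over 18 fits of the correctly placed rows 6 to 7 were higher, since the call of MOAP1 (0.23, adjusted p = 0.0168) was lost in some of them (adjusted p up to 0.127). BNIP3 was at 0.59 and 0.625 FPKM in Raji DMSO and at 10.99 and 11.5 FPKM in Raji-4RH DMSO (log2 fold change 2.93, adjusted p = 2.52e-09). Its paralog BNIP3L was at 6.30 and 5.99 FPKM and at 13.8 and 14.3 FPKM (1.07, adjusted p = 9.62e-07). Chidamide raised BNIP3L in Raji-4RH (0.83, adjusted p = 4.68e-06) and in Raji (0.48, adjusted p = 0.000246), while BNIP3 changed by 0.09 (adjusted p = 0.193) and -0.12 (adjusted p = 0.103). MOAP1, a BAX-binding protein, rose in Raji-4RH (0.65, adjusted p = 4.02e-05). In Raji it did not pass (0.16, adjusted p = 0.0778), except in some fits such as that of only the libraries compared (adjusted p = 0.0359). The effects on MOAP1 differed by 0.49 (adjusted p = 0.004), a call kept in all fits of the correctly placed rows. HUWE1, the ubiquitin ligase of MCL1, rose by 0.27 in Raji-4RH (adjusted p = 0.00275) and by 0.17 in Raji (adjusted p = 0.0289). The call in Raji was lost with median-centred libraries and without some single libraries. The difference between the effects on HUWE1 did not pass (0.093, adjusted p = 0.374), except after quantile normalization. BNIP1 fell by 0.40 in Raji-4RH (adjusted p = 0.00454) and changed by 0.073 in Raji (adjusted p = 0.544). The effects on BNIP1 differed by -0.48 (adjusted p = 0.0193), from -0.60 to -0.35 over the fits. That call was lost without a filter on low genes. Of the list, the difference was higher for 2 genes (MOAP1 and BNIP3L, 0.35, adjusted p = 0.0113) and lower for 1 (BNIP1). Of all genes, 27.2% were higher and 21.7% lower in this test.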
